A study of Mus musculus with 27 samples.

Results

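The renin-angiotensin, mineralocorticoid and endothelin systems were represented by 7 genes, taken by their symbol from the 27304 genes of a bulk RNA-sequencing count table of the mouse heart. They were *Agt* (ENSMUSG00000031980), *Ace* (ENSMUSG00000020681), *Agtr1a* (ENSMUSG00000049115), *Nr3c2* (ENSMUSG00000031618), *Edn1* (ENSMUSG00000021367), *Ednra* (ENSMUSG00000031616) and *Ednrb* (ENSMUSG00000022122). They were picked by name and by no rule on measured values, although earlier results of these data were known at the time. All 7 had counts in each of the 27 libraries and passed the filter on low counts in every comparison.

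The libraries came from the hearts of 14 mice, killed 7 days after myocardial infarction (MI), and 13 mice gave both infarct tissue and remote myocardium. All mice were males of the C57BL/6J strain that lacked the apolipoprotein E gene (ApoE-/-), and all had eaten a western diet for 4 weeks before the groups were split. In mice with chronic kidney disease (CKD), this diet then contained adenine, a purine whose breakdown product forms crystals that injure the kidney, at 0.3% for 10 days and at 0.15% for a further 11 days. The last phase began 4 days before the infarction and ran until the hearts were taken. Control mice stayed on the adenine-free western diet, had the same gene deletion and were infarcted as well, so no group shows the uninjured heart. There were 7 CKD infarct, 6 control infarct, 8 CKD remote and 6 control remote libraries. The questions were how CKD mice differed from control mice within each region, how infarct differed from remote tissue within each diet, and whether the CKD effect differed between regions.

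Angiotensinogen, encoded by *Agt*, is cut by renin to angiotensin I, which the angiotensin-converting enzyme ACE shortens to angiotensin II. Angiotensin II raises vascular tone and drives aldosterone release and matrix production through the type 1 receptor, the main form of which in rodents is encoded by *Agtr1a*. Aldosterone and corticosterone act on the mineralocorticoid receptor, a nuclear receptor encoded by *Nr3c2*. Endothelin-1, the product of *Edn1*, constricts vessels through the A receptor (*Ednra*) of muscle cells, while the B receptor (*Ednrb*) of endothelial cells mediates dilation and clears the peptide. Blockers of these receptors and of ACE are used in heart and kidney disease.

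The start-site flanks of 4 genes are shown, each of which passed the test between infarct and remote tissue in at least one diet. *Agt* (both diets) and *Nr3c2* (control hearts) were lower in the infarct, and *Edn1* (both diets) and *Ace* (CKD hearts) were higher, although their ranges overlapped between regions, except for *Agt* in control hearts. Each is the 250 bases before an annotated start, read 5′ to 3′ on the gene's strand, from RefSeq on mouse build GRCm38.p6. Entries were found for 6 of the 7 genes, not for *Agtr1a*, and *Ace* had 2 starts, of which the upstream one is shown. *Ednrb* also passed, in CKD hearts, and had an entry, but its flank is not shown. Capitals mark the core promoter box spelled TATAAA, the Sp1-type box spelled GGGCGG, or the NF-Y-type box spelled CCAAT, on either strand. The regions are chr8:124569707-124569956 (minus strand) for *Agt*, chr8:76902080-76902329 (plus strand) for *Nr3c2*, chr13:42301226-42301475 (plus strand) for *Edn1* and chr11:105967698-105967947 (plus strand) for *Ace*.
Agt: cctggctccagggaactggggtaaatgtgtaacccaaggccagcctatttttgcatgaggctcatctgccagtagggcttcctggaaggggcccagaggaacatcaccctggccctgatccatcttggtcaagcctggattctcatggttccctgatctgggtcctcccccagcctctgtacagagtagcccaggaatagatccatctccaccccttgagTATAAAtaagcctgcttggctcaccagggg
Nr3c2: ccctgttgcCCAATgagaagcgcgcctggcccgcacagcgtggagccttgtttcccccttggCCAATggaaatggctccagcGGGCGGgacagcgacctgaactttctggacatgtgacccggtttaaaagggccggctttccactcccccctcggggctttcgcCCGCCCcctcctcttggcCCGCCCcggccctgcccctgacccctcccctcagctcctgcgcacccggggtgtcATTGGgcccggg
Edn1: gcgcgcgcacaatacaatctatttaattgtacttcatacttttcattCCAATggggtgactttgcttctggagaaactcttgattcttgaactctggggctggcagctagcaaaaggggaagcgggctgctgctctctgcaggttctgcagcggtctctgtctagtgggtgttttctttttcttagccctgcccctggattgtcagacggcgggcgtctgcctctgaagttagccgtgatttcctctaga
Ace: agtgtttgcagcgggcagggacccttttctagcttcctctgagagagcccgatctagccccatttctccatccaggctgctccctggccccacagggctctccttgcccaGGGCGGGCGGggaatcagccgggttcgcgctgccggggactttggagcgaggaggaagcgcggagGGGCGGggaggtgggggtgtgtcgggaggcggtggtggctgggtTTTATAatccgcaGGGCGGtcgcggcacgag
*Agt* held TATAAA with its first base 30 bases before the start, and *Ace* held it on the other strand 31 bases before the start. GGGCGG occurred 4 times in *Ace*, the first 2 overlapping, and 3 times in *Nr3c2*. CCAAT occurred 3 times in *Nr3c2* and 1 time in *Edn1*. Over 32851 annotated starts, windows of the same length held TATAAA in 12.4%, GGGCGG in 32.7% and CCAAT in 33.8%. TGANTCA (AP-1, 6.75% of windows) and AGATAA (a site of GATA-binding factors, 9.99%) were searched for on both strands and occurred in none of the 7 windows of these genes. A match of letters is a description and shows no binding.

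Total counts per library ran from 14255456 to 42566498. Levels are CPM, gene counts scaled by library size after correction with the trimmed mean of M-values (TMM). They are not divided by transcript length, so they compare libraries and not genes. *Apoe*, the gene deleted in all mice, had 9.78 to 33.8 CPM over all libraries, and no wild-type library was there to compare it with. A cardiomyocyte score, the mean log2 CPM of 10 muscle genes such as *Myh6* and *Tnnt2*, was 11.6 ± 0.66 in CKD infarct and 9.90 ± 1.22 in control infarct tissue (SD, n = 7 and 6). It was 12.5 ± 0.11 in CKD remote and 12.3 ± 0.43 in control remote tissue (n = 8 and 6). The infarct libraries of CKD mice 9172 and 9179 scored 12.3 and 12.6, as high as remote tissue, and the remote library of control mouse 9180 scored 11.4. The fibroblast score, over 8 genes such as *Dcn* and *Col1a1*, was 6.601 in the infarct library of mouse 9179, below the range of 6.70 to 8.36 in remote libraries. The remote library of mouse 9179 was placed with CKD by its title, although its treatment label reads control. For several tests of the 7 genes that rest on these libraries, results are also given without them, and for the interaction as ranges over settings. Marker levels include them.

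*Agt*, the precursor of the angiotensin peptides, was higher in CKD than in control mice in both regions and passed the test in the infarct. Its lowest, median and highest levels were 2.16, 4.36 and 10.3 CPM in CKD infarct libraries and 1.36, 1.77 and 2.73 CPM in control infarct libraries. In remote tissue they were 4.62, 9.50 and 18.8 CPM in CKD mice, against 3.50, 5.58 and 8.78 CPM in control mice. The CKD infarct library of mouse 9172, at 10.3 CPM, stood at the level of CKD remote tissue, and 5 of the 7 CKD infarct libraries lay above every control infarct library. Remote ranges overlapped. The infarct level was lower than the remote level in all 6 control hearts, with no overlap between the groups of libraries, and in 6 of 7 CKD hearts. Group means ran upward from control infarct over CKD infarct and control remote to CKD remote tissue, and the middle pair, at 4.86 and 5.604 CPM, differed by less than 1 SD. In bulk tissue, fewer cells of a type and less RNA per cell cannot be told apart.

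*Ace*, which makes angiotensin II and breaks down bradykinin, had the opposite order. It ranged over 52.4, 118 and 145 CPM (lowest, median, highest) in CKD infarct and 95.7, 112 and 180 CPM in control infarct libraries. Remote levels were 60.5, 74.9 and 94.5 CPM in CKD and 63.7, 88.8 and 141 CPM in control mice. All ranges overlapped, and neighbouring group means in the order differed by less than 1 SD. The lowest CKD infarct value belonged to mouse 9179, the next lowest being 100 CPM.

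*Agtr1a*, the type 1 angiotensin receptor, spanned 9.97, 17.1 and 31.6 CPM in CKD infarct and 4.89, 7.42 and 12.4 CPM in control infarct libraries. In remote tissue it spanned 28.4, 31.4 and 48.4 CPM in CKD mice, against 9.89, 31.8 and 41.7 CPM in control mice. The 2 highest CKD infarct values, 31.6 and 30.7 CPM, came from mice 9172 and 9179, and the lowest control remote value from mouse 9180. *Nr3c2* had a like order of groups. Its levels were 4.48, 6.94 and 20.96 CPM in CKD infarct and 1.89, 4.80 and 6.07 CPM in control infarct tissue. They were 12.2, 14.2 and 22.2 CPM in CKD remote and 5.86, 12.9 and 18.9 CPM in control remote tissue. The highest *Nr3c2* value of each CKD group came from mouse 9179, and the lowest control remote value again from mouse 9180. Of neighbouring group means, only those of *Agtr1a* in CKD infarct and control infarct tissue differed by more than 1 SD.

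**Figure D1:**
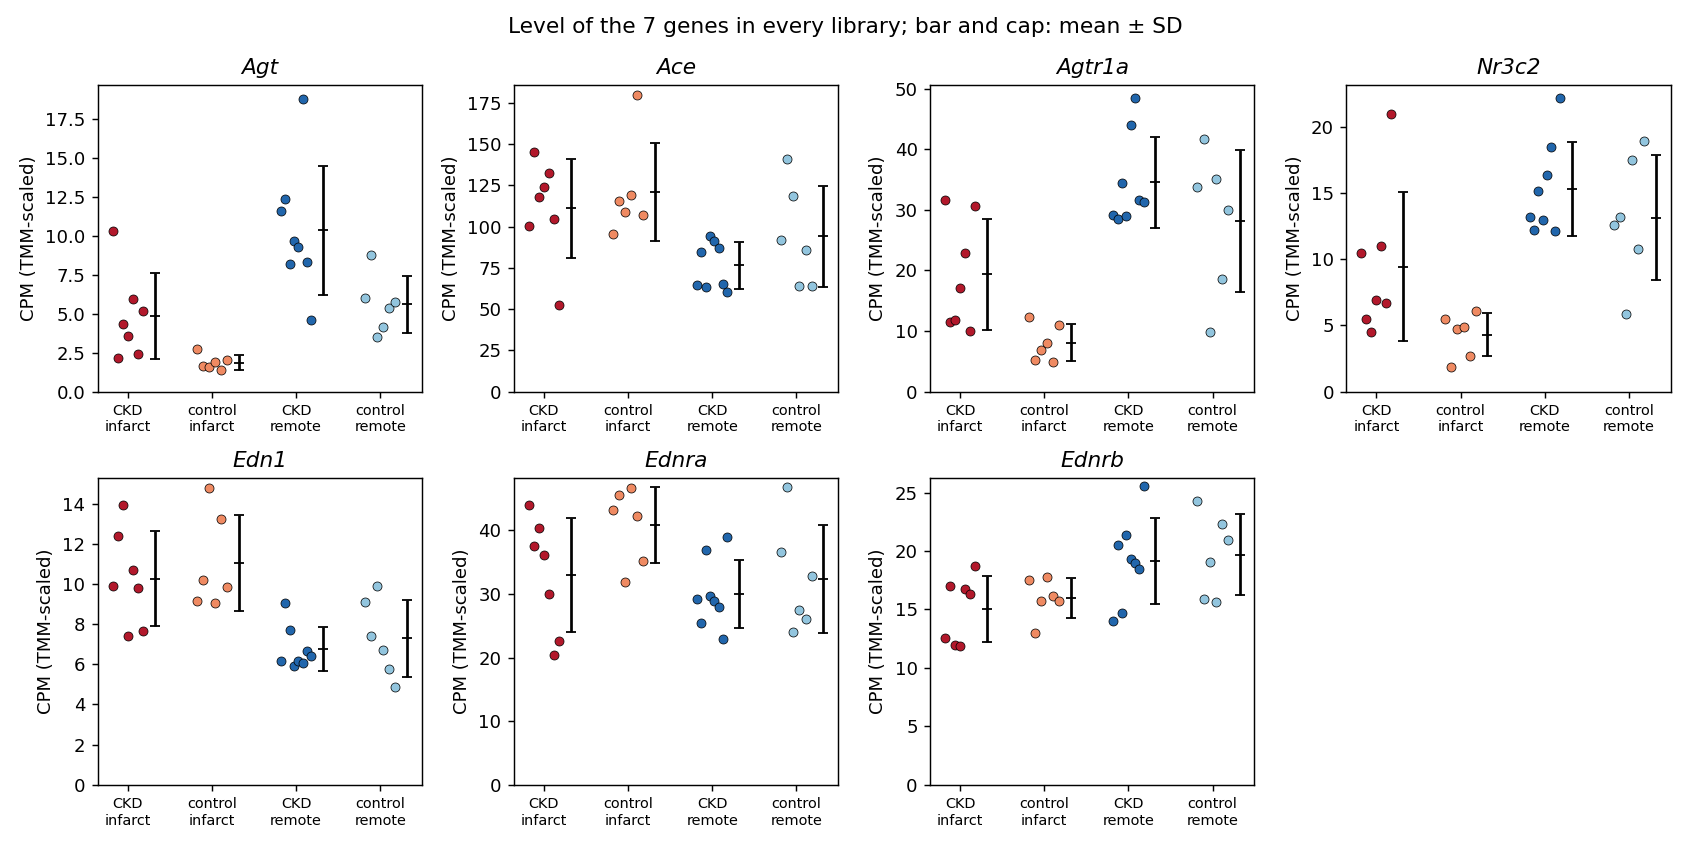
Level in CPM (TMM-scaled) of the 7 genes in every library, by group, each point a library and each bar the mean ± SD; every axis starts at 0 and has its own scale. *Agt*, *Agtr1a* and *Nr3c2* had their lowest mean in control infarct tissue (1.87, 8.03 and 4.28 CPM), while *Ace* and *Edn1* had their highest mean there (121 and 11.0 CPM).

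*Edn1*, the endothelin-1 precursor gene, ranged over 7.42, 9.89 and 13.9 CPM in CKD infarct and 9.08, 10.0 and 14.8 CPM in control infarct libraries. Remote levels were 5.90, 6.28 and 9.05 CPM in CKD and 4.88, 7.06 and 9.89 CPM in control mice. The ranges of the diets overlapped in both regions, and the infarct level was higher than the remote level in all 7 CKD and all 6 control hearts. In control mouse 9170 the levels were nearly equal, at 9.15 CPM in the infarct and 9.11 CPM in remote tissue. *Ednra*, the constrictor receptor, ranged over 20.4, 36.1 and 44.1 CPM in CKD infarct and 31.9, 42.8 and 46.7 CPM in control infarct tissue. It ranged over 22.99, 29.1 and 38.9 CPM in CKD remote and 24.1, 30.2 and 46.9 CPM in control remote tissue. *Ednrb*, the endothelial and clearing receptor, ranged over 11.9, 16.4 and 18.7 CPM in CKD infarct and 13.01, 15.95 and 17.8 CPM in control infarct tissue. Its remote levels were 14.01, 19.1 and 25.6 CPM in CKD and 15.6, 20.03 and 24.3 CPM in control mice. Neighbouring *Edn1* means differed by more than 1 SD only between CKD infarct (10.3 CPM) and control remote tissue (7.29 CPM). The *Ednra* and *Ednrb* ranges overlapped in every comparison, and neighbouring group means differed by less than 1 SD. The log2 ratio of *Ednra* to *Ednrb* counts, which is read across groups only, averaged 1.10 ± 0.65 in CKD infarct, 1.34 ± 0.27 in control infarct, 0.65 ± 0.36 in CKD remote and 0.69 ± 0.47 in control remote libraries (SD), and was not tested.

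In infarct tissue, CKD mice had more mRNA of the precursor *Agt* and of the angiotensin receptor *Agtr1a* than control mice, and edgeR's quasi-likelihood test with Benjamini-Hochberg adjustment called both. *Agt* averaged 4.86 ± 2.78 CPM in CKD infarct and 1.87 ± 0.48 CPM in control infarct tissue (SD, n = 7 and 6), and the log2 fold change was 1.35 ± 0.33 (SE, adjusted p = 0.0345). *Agtr1a* averaged 19.4 ± 9.13 CPM in CKD and 8.03 ± 3.06 CPM in control infarct tissue, and its log2 fold change was 1.23 ± 0.33 (adjusted p = 0.0345). *Nr3c2*, the mineralocorticoid receptor, stood at 1.10 ± 0.37 (adjusted p = 0.0505) and did not pass. These were 2 of 7 genes called, both higher, where 20.3% of all 14358 genes tested were called, 13.1% higher and 7.14% lower. The median log2 fold change was -0.12 over the 7 genes and -0.02 over all genes tested.

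The endothelin genes and *Ace* did not pass in the infarct. The log2 fold change was -0.15 ± 0.21 for *Ace* (adjusted p = 0.596), -0.13 ± 0.17 for *Edn1* (0.569), -0.34 ± 0.18 for *Ednra* (0.164) and -0.12 ± 0.13 for *Ednrb* (0.498).

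The calls of *Agt* and *Agtr1a*, like all calls of this comparison, rested on few libraries. With the CKD infarct libraries of mice 9172 and 9179 left out, the log2 fold changes were 0.95 for *Agt* and 0.82 for *Agtr1a* (adjusted p = 0.0910 and 0.104), and that of *Nr3c2* was 0.65 (0.191). Both calls were also lost without any 1 of the libraries of control mice 9171, 9182 and 9183 and CKD mice 9172 and 9177, with fold changes of 1.05 to 1.36 for *Agt* and 1.08 to 1.23 for *Agtr1a* (adjusted p = 0.0527 to 0.0837). In each of these leave-outs 0 of all genes passed, while 4064 to 5311 had an unadjusted p under 0.05. *Nr3c2* passed without CKD mouse 9174 or 9175 (adjusted p = 0.0429 and 0.0270). In a fit with the cardiomyocyte score as covariate, the log2 fold change was 0.74 for *Agt*, 0.31 for *Agtr1a* and -0.09 for *Nr3c2* (adjusted p = 0.988, 0.988 and 0.989), and 0 of all genes passed (524 at an unadjusted p under 0.05). All 10 cardiomyocyte markers had a log2 fold change above 0 here, 5 of them called, with a median of 1.43. Their summed level was 28507 to 102645 CPM in CKD infarct and 4490 to 29206 CPM in control infarct libraries, and no marker was at 0. The highest CKD values, 102645 and 84456 CPM, were those of mice 9179 and 9172, and the next was 58752 CPM. The part of muscle content in the 3 differences was not tested beyond this covariate.

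**Figure D2:**
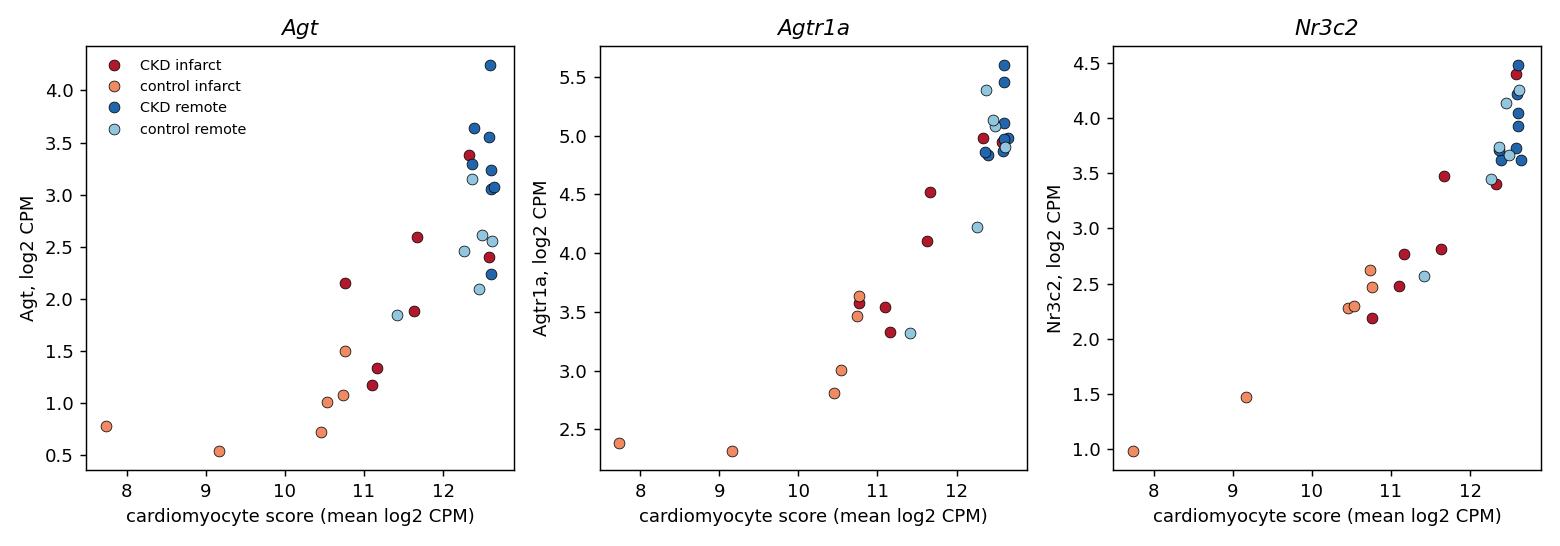
Log2 CPM of *Agt*, *Agtr1a* and *Nr3c2* against the cardiomyocyte score (mean log2 CPM of 10 muscle genes), each point a library coloured by group. Libraries with low scores, mostly control infarct pieces down to 7.74, had low levels of all 3 genes, and the 2 CKD infarct libraries at 12.3 and 12.6 lay among the remote libraries for *Agtr1a*.

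In remote myocardium none of the 7 genes was called between CKD and control mice, where 0.0216% of 13902 genes tested were called (3 genes, and 1626 at an unadjusted p under 0.05). *Agt* came nearest, with 10.4 ± 4.16 CPM in CKD remote and 5.604 ± 1.83 CPM in control remote tissue (SD, n = 8 and 6), and its log2 fold change was 0.89 ± 0.26 (adjusted p = 0.281). It was the only 1 of the 7 with an unadjusted p under 0.05, and its fold change stayed between 0.71 and 1.06 over 24 settings of the analysis (adjusted p = 0.0640 to 0.541). The other log2 fold changes were -0.30 ± 0.17 for *Ace* (adjusted p = 0.517), 0.31 ± 0.24 for *Agtr1a* (0.644) and 0.23 ± 0.22 for *Nr3c2* (0.705). For the endothelin genes they were -0.11 ± 0.16 for *Edn1* (0.817), -0.10 ± 0.15 for *Ednra* (0.826) and -0.04 ± 0.14 for *Ednrb* (0.934). Without the remote library of control mouse 9180, *Agtr1a* stood at 0.13 and *Nr3c2* at 0.09 (adjusted p = 0.900 and 0.941), and *Agt* at 0.78 (0.472). With mouse 9179 counted as control, *Nr3c2* was at -0.0013. All 10 cardiomyocyte markers lay above 0 and all 8 fibroblast markers below 0 in this comparison, none of them called, with medians of 0.22 and -0.39. Other marker lists stood further from 0, again with none called. The median was -2.22 for activated fibroblast markers (6 of 6 below 0), 1.89 for neutrophil markers (4 of 4 above 0) and -1.17 for mesothelial markers (5 of 5 below 0). The summed level of activated fibroblast markers was 124 to 413 CPM in CKD remote and 234 to 2451 CPM in control remote libraries. The value of 2451 CPM came from control mouse 9180, and the next highest control value was 610 CPM. The medians of the marker lists are given with this library only. The part of these cells in the remote differences was not tested.

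Within control hearts, the infarct held less *Agt*, *Agtr1a* and *Nr3c2* and more *Edn1* than remote tissue. Infarct levels were 1.87 ± 0.48 CPM for *Agt*, against 5.604 ± 1.83 CPM in remote tissue, and 8.03 ± 3.06 CPM for *Agtr1a*, against 28.1 ± 11.8 CPM (SD, n = 6 each). They were 4.28 ± 1.63 CPM for *Nr3c2*, against 13.1 ± 4.72 CPM in remote tissue, and 11.0 ± 2.38 CPM for *Edn1*, against 7.29 ± 1.93 CPM. On the log2 scale *Agt* fell by 1.59 ± 0.33 (SE, adjusted p = 2.09e-04 by edgeR's quasi-likelihood test), *Agtr1a* by 1.81 ± 0.33 (5.66e-05) and *Nr3c2* by 1.62 ± 0.34 (2.30e-04), and *Edn1* rose by 0.60 ± 0.17 (0.00380). These 4 of 7 calls stand beside 63.9% called among all 14770 genes tested, 30.7% higher and 33.2% lower. The test did not pair the pieces of a heart, and with mouse as a block all 4 calls were kept.

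*Ace*, *Ednra* and *Ednrb* did not pass in control hearts, at 0.37 ± 0.20, 0.34 ± 0.18 and -0.30 ± 0.15 (adjusted p = 0.114, 0.0985 and 0.0790). With mouse as a block over the 13 paired mice, *Ednra* passed at 0.36 (adjusted p = 0.0452), and with mouse as a random effect in limma-voom *Ace* passed as well at 0.55 (adjusted p = 7.63e-04). *Ace* and *Ednra* also passed without the remote library of control mouse 9171, at 0.55 and 0.51 (adjusted p = 0.0267 and 0.0135). *Ednrb* passed without that of mouse 9182, at -0.36 (adjusted p = 0.0479), and with the remote library of mouse 9179 counted as control, at -0.37 (0.0228). *Ednra* also passed with upper-quartile scaling, at 0.40 (0.0417), and limma-voom with sample weights called both *Ace*, at 0.56 (0.00227), and *Ednra*, at 0.37 (0.0276).

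Within CKD hearts the same comparison called 5 of the 7 genes, beside 45% of all genes tested (24.7% higher, 20.2% lower). *Agt* fell by 1.11 ± 0.29 (adjusted p = 0.00385), *Agtr1a* by 0.85 ± 0.29 (0.0191) and *Ednrb* by 0.36 ± 0.13 (0.0315). *Edn1* rose by 0.59 ± 0.15 (0.00414) and *Ace* by 0.52 ± 0.18 (0.0223). *Edn1* averaged 10.3 ± 2.36 CPM in CKD infarct and 6.77 ± 1.09 CPM in CKD remote tissue (SD, n = 7 and 8), and *Ace* averaged 111 ± 30.1 CPM in CKD infarct and 76.5 ± 14.2 CPM in CKD remote tissue. *Nr3c2* was at -0.72 ± 0.30 (adjusted p = 0.0504) and *Ednra* at 0.12 ± 0.16 (0.550). *Nr3c2* passed with mouse as a block, at -0.90 (adjusted p = 0.00907), and without the 2 CKD infarct libraries of mice 9172 and 9179, at -1.14 (adjusted p = 0.00124). It also passed without the infarct library of mouse 9179 alone (-1.03) or the remote library of CKD mouse 9172, 9173 or 9178 (-0.74 to -0.76, adjusted p = 0.0457 to 0.0492). With all libraries kept, DESeq2 size factors, the DESeq2 test and limma-voom with sample weights each called *Nr3c2* too.

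Without the 2 libraries of mice 9172 and 9179, *Agt* was at -1.47, *Agtr1a* at -1.23, *Ace* at 0.72 and *Edn1* at 0.70, all 4 still called. The *Ednrb* call was lost without the remote library of CKD mouse 9175 or 9179 or the infarct library of CKD mouse 9172, 9175 or 9176 (-0.29 to -0.34, adjusted p = 0.0511 to 0.0793), and with the remote library of mouse 9179 counted as control (-0.29, adjusted p = 0.0868). The *Ace* call was lost without the infarct library of CKD mouse 9174 (0.44, adjusted p = 0.0621). Of 10 endothelial markers, 8 fell in the infarct of CKD hearts and 8 in that of control hearts. Their summed level was 1294 to 2470 CPM in CKD infarct, 971 to 1674 CPM in control infarct, 2107 to 3305 CPM in CKD remote and 2275 to 2944 CPM in control remote libraries, with no marker at 0. The highest CKD infarct values, 2470 and 2251 CPM, were those of mice 9179 and 9172, and the next was 1742 CPM. The part of endothelial content in the levels of *Edn1*, *Ednrb* and *Ace* was not tested.

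**Figure D3:**
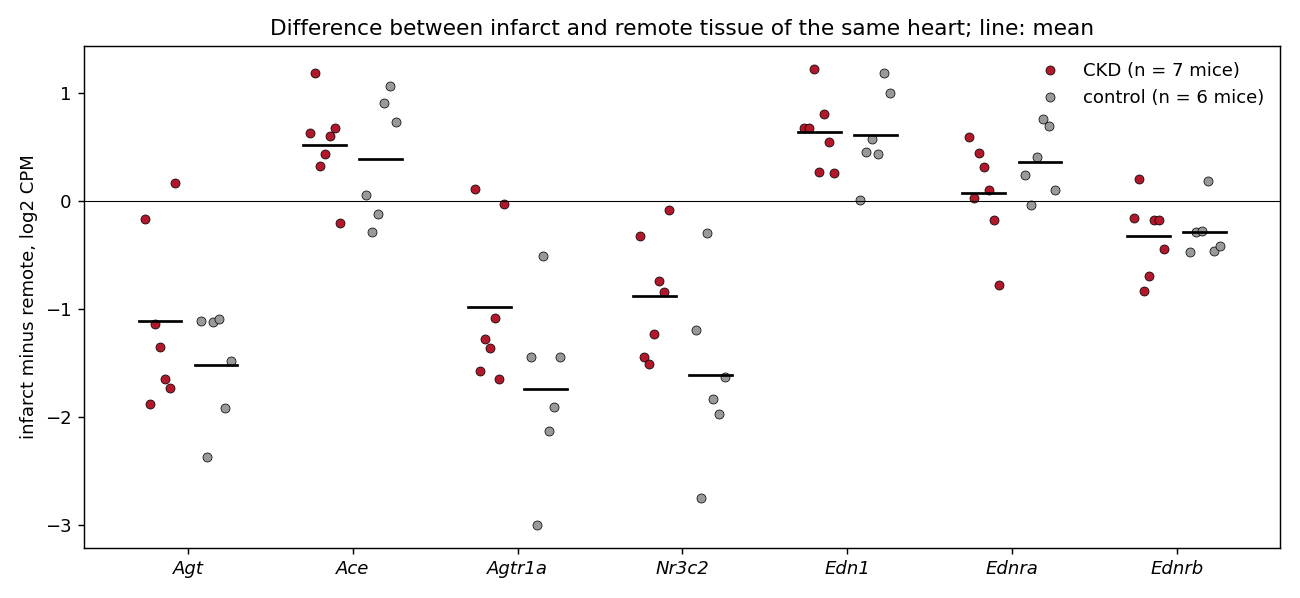
Infarct minus remote log2 CPM of the same heart for the 7 genes, each point a mouse (7 CKD, 6 control) and each line a mean. *Edn1* lay above 0 in all 13 hearts, in control mouse 9170 only at 0.006, and *Nr3c2* below 0 in all 13. For *Agt* and *Agtr1a* the CKD hearts nearest to 0 were those of mice 9172 and 9179.

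Over single hearts, the mean infarct minus remote difference in log2 CPM was -1.11 ± 0.80 in CKD and -1.52 ± 0.53 in control hearts for *Agt* (SD, n = 7 and 6). It was -0.98 ± 0.72 in CKD and -1.74 ± 0.83 in control hearts for *Agtr1a*, and -0.88 ± 0.55 in CKD and -1.61 ± 0.82 in control hearts for *Nr3c2*. *Edn1* differed by 0.64 ± 0.33 in CKD and 0.61 ± 0.43 in control hearts. In mouse 9179 the difference was 0.17 for *Agt* and -0.03 for *Agtr1a*, and in mouse 9172 it was -0.17 for *Agt* and 0.11 for *Agtr1a*, so all 4 values lay near 0. In the other CKD hearts the differences ran from -1.88 to -1.13 for *Agt* and from -1.65 to -1.08 for *Agtr1a*.

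Whether the CKD effect differed between regions was tested as an interaction, and none of the 7 genes passed. By edgeR's test 0% of the 14770 genes tested passed, with 2787 at an unadjusted p under 0.05, while DESeq2 called 10 genes and limma-voom 6, none of them among the 7. The difference of effects, infarct minus remote, was 0.96 ± 0.43 for *Agtr1a* (SE, adjusted p = 0.224), 0.90 ± 0.44 for *Nr3c2* (0.271) and 0.48 ± 0.43 for *Agt* (0.583). It was 0.16 ± 0.27 for *Ace* (0.807), -0.01 ± 0.23 for *Edn1* (0.988), -0.22 ± 0.24 for *Ednra* (0.673) and -0.06 ± 0.20 for *Ednrb* (0.904). The call of *Agt* and *Agtr1a* in the infarct and its absence in remote tissue therefore do not show that the CKD effects differ.

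**Figure D4:**
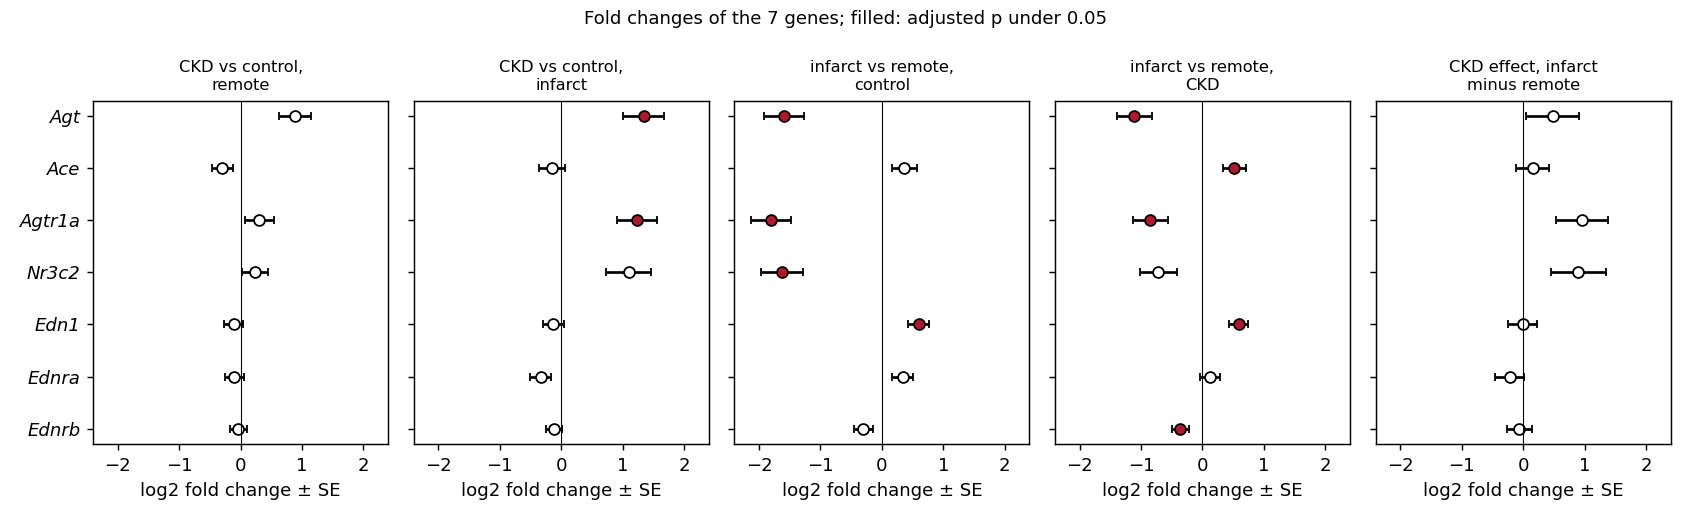
Log2 fold change ± SE of the 7 genes in the 4 comparisons and in the difference of CKD effects, filled where the adjusted p was under 0.05. *Agt* was higher with CKD at 1.35 in the infarct and 0.89 in remote tissue, where it did not pass, and *Edn1* was higher in the infarct at 0.59 in CKD and 0.60 in control hearts.

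The other genes of the 3 systems included several that the heart hardly expressed. Renin (*Ren1*) had 15 counts in 5 of the 27 libraries, the type 2 angiotensin receptor *Agtr2* had 20 counts in 8, and *Agtr1b* and the aldosterone synthase gene *Cyp11b2* had 0 in all. *Edn2* had 32 counts over all libraries. Of 18 further renin-angiotensin genes, 11 to 13 were tested. In CKD hearts 4 were higher and 2 lower in the infarct, and in control hearts 3 were higher and 4 lower, beside 45% of all genes called in CKD and 63.9% in control hearts. *Anpep*, the aminopeptidase N of myeloid cells and fibroblasts that trims angiotensin III, rose by 2.42 ± 0.39 in CKD hearts and 2.47 ± 0.44 in control hearts (adjusted p = 9.51e-05 and 4.80e-05). *Atp6ap2*, the prorenin receptor, rose by 1.30 ± 0.21 in CKD and 1.37 ± 0.24 in control hearts (adjusted p = 1.04e-04 and 4.11e-05). *Prcp*, a carboxypeptidase that cleaves angiotensin II, rose by 1.14 ± 0.27 in CKD and 1.21 ± 0.31 in control hearts (adjusted p = 0.00224 and 0.00142). The peptidase gene *Nln* rose by 0.52 ± 0.13 in CKD hearts (0.00382) and was at 0.29 ± 0.15 in control hearts (0.0894). *Thop1*, a peptidase that cleaves angiotensin I, fell by 0.23 ± 0.09 in CKD and 0.50 ± 0.11 in control hearts (adjusted p = 0.0467 and 2.38e-04). *Mas1*, a G protein-coupled receptor gene of this list with 4 to 62 counts a library, fell by 1.53 ± 0.46 in CKD hearts and fell by 2.14 ± 0.52 in control hearts (adjusted p = 0.0105 and 9.96e-04). The control values of *Prcp* and *Nln* and the CKD values of *Thop1* and *Mas1* were added after their values were seen. They were not run under the alternatives.

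**Figure D5:**
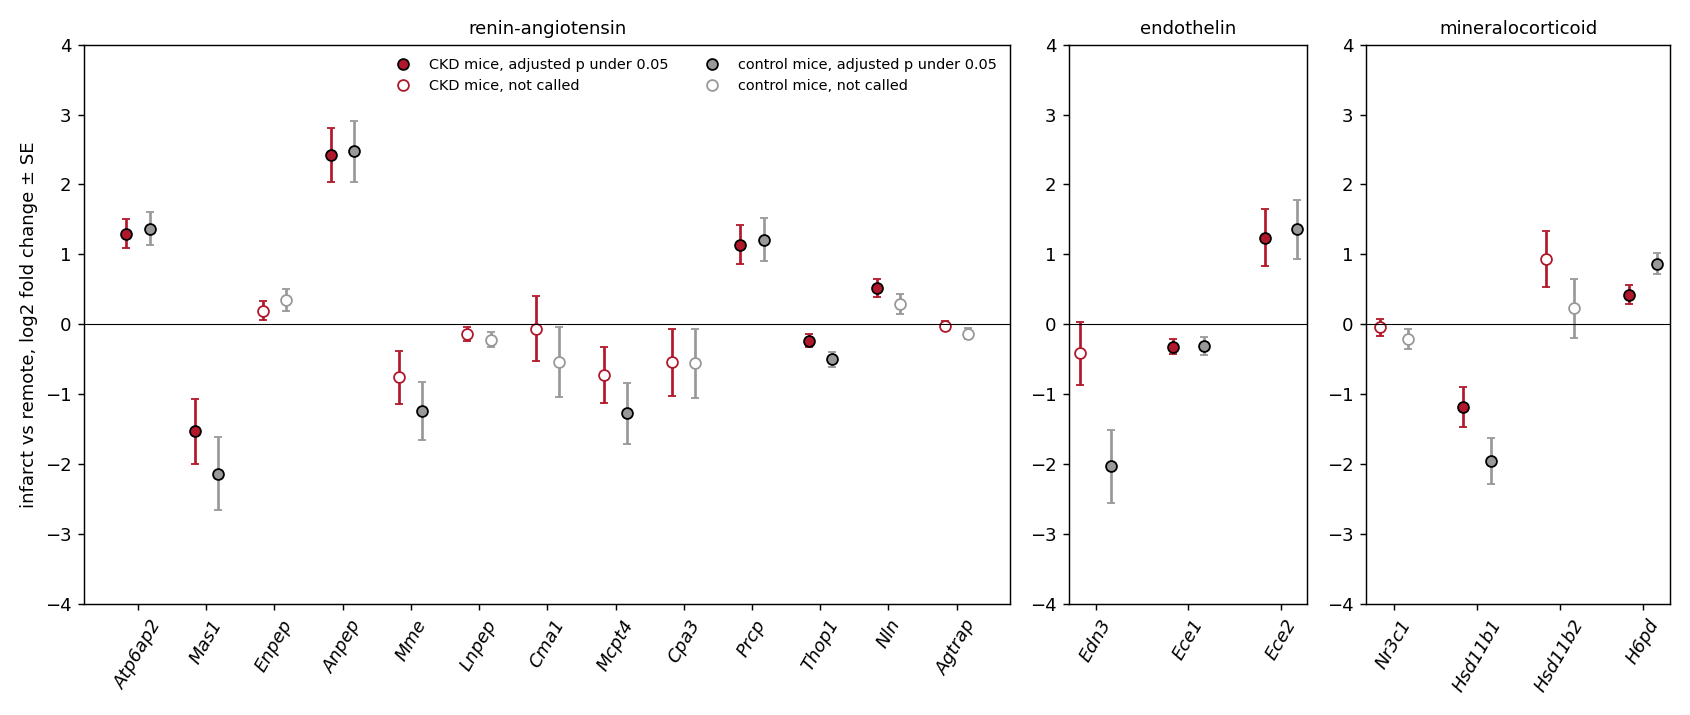
Log2 fold change ± SE of infarct against remote tissue for the further renin-angiotensin, endothelin and corticosteroid genes that were tested, in CKD and control mice, filled where the adjusted p was under 0.05. *Anpep* and *Atp6ap2* were higher in the infarct with both diets (2.42 and 1.30 in CKD, 2.47 and 1.37 in control hearts), and *Hsd11b1* was lower with both.

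Of the 5 further endothelin genes, 3 were tested between regions. *Ece2*, a converting-enzyme gene, rose in the infarct by 1.24 ± 0.41 in CKD and 1.36 ± 0.42 in control hearts (adjusted p = 0.0179 and 0.00641), on 1 to 42 counts a library, and its CKD call was lost without the infarct library of CKD mouse 9175 (0.99, adjusted p = 0.0649). *Ece1*, the main endothelin-converting enzyme, fell by 0.32 ± 0.11 in CKD and 0.31 ± 0.13 in control hearts (adjusted p = 0.0245 and 0.0339). With mouse as a block in edgeR it did not pass in either (-0.30 in CKD and -0.31 in control hearts, adjusted p = 0.0580 and 0.0568). With mouse as a random effect in limma-voom both calls were kept. The *Ece1* call was also lost in CKD hearts without the infarct library of mouse 9176 or 9178. In control hearts it was lost without the remote library of mouse 9170, 9171, 9182 or 9184 or the infarct library of mouse 9170, 9171, 9180 or 9182 (adjusted p = 0.0530 to 0.161), and kept in the other 4 leave-outs. It was lost there also with DESeq2 size factors (adjusted p = 0.0639), upper-quartile scaling (0.0729), no filter (0.0508) and the DESeq2 test (0.0524). *Edn3*, encoding endothelin-3, fell by 2.03 ± 0.52 in control hearts (adjusted p = 0.00162), on 3 to 236 counts a library, and was not called in CKD hearts.

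Of 4 genes tested that handle corticosteroids, 1 was higher and 1 lower in the infarct, in CKD hearts and in control hearts, a share near or below that over all genes (45% and 63.9%). *Hsd11b1*, which regenerates active corticosterone, fell in the infarct by 1.18 ± 0.29 in CKD and 1.96 ± 0.33 in control hearts (adjusted p = 0.00266 and 3.06e-05). *H6pd*, which supplies its cofactor, rose by 0.42 ± 0.13 in CKD and 0.87 ± 0.15 in control hearts (adjusted p = 0.0146 and 4.20e-05). Of 9 genes known to respond to the mineralocorticoid or glucocorticoid receptor, 2 were higher and 2 lower in the infarct of CKD hearts, and 2 were higher and 3 lower in that of control hearts, again a share near or below that over all genes. *Nedd4l*, a ubiquitin ligase that removes sodium channels, fell by 0.34 ± 0.10 in CKD and 0.54 ± 0.11 in control hearts (adjusted p = 0.00659 and 1.23e-04). *Fkbp5*, a chaperone induced by corticosteroids, rose by 0.61 ± 0.18 in CKD and 0.74 ± 0.20 in control hearts (adjusted p = 0.00915 and 0.00259).

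Of 12 genes known to respond to angiotensin II or endothelin, 8 were higher and 0 lower in the infarct of CKD hearts, and 9 were higher and 0 lower in that of control hearts, where 24.7% and 30.7% of all genes were called higher. The list's median log2 fold change was 1.61 in CKD and 1.95 in control hearts, beside -0.01 over all genes tested in each. *Nox4*, an oxidase of fibroblasts and other cells, rose by 3.04 ± 0.49 in CKD and 2.39 ± 0.50 in control hearts (adjusted p = 9.96e-05 and 2.33e-04). *Cybb*, the phagocyte oxidase subunit, rose by 2.59 ± 0.40 in CKD and 2.23 ± 0.45 in control hearts (adjusted p = 8.46e-05 and 1.55e-04). *Thbs1*, encoding the matrix protein thrombospondin-1, rose by 3.23 ± 0.65 in CKD and 3.12 ± 0.73 in control hearts (adjusted p = 5.01e-04 and 6.90e-04). Markers of other cells moved with these genes: 5 of 6 macrophage markers and 7 of 8 fibroblast markers rose in the infarct with either diet. Summed macrophage markers were 440 to 6470 CPM in CKD infarct, 1672 to 4005 CPM in control infarct, 380 to 739 CPM in CKD remote and 345 to 1360 CPM in control remote libraries. The value of 440 CPM was that of mouse 9179, and the next lowest CKD infarct value was 1346 CPM. The part of these cells in the differences was not tested.

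Of 14 genes of Gq signalling and its brakes, 4 were higher and 1 lower in the infarct of CKD hearts, and 6 were higher and 4 lower in that of control hearts, beside 45% and 63.9% of all genes called. *Arrb2*, a beta-arrestin that uncouples receptors, rose by 1.42 ± 0.25 in CKD and 1.52 ± 0.28 in control hearts (adjusted p = 1.59e-04 and 6.33e-05). *Gna11*, a G protein subunit downstream of these receptors, fell by 0.37 ± 0.09 in CKD and 0.58 ± 0.09 in control hearts (adjusted p = 0.00164 and 2.32e-05).

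Between diets, 5 genes of these further lists passed in infarct tissue, where 20.3% of all genes were called. These were 0 of 11 further renin-angiotensin genes tested, 0 of 3 endothelin genes and 1 of 4 genes that handle corticosteroids. Of the response genes, 1 of 9 passed for the corticosteroid receptors and 2 of 12 for angiotensin II or endothelin, and 1 of 14 Gq signalling genes passed. Here *H6pd* fell by 0.64 ± 0.18 in CKD relative to control mice (adjusted p = 0.0361), *Il6*, an inflammatory cytokine, fell by 2.63 ± 0.80 (0.0394), and *Thbs1* fell by 1.99 ± 0.61 (0.0394). *Plcb3*, the Gq-activated phospholipase, fell by 0.52 ± 0.13 (0.0345). *Nedd4l* rose by 0.29 ± 0.09 (adjusted p = 0.0446). All 5 calls were lost in the leave-outs that ended those of *Agt* and *Agtr1a*, without CKD mice 9172 and 9179 (adjusted p = 0.0855 to 0.191) and with the cardiomyocyte covariate. In each of these settings 0 of all genes passed. *Il6* was at -1.27 without control mouse 9184 (adjusted p = 0.132) and at -1.51 by limma-voom (0.1497), and its call held in 5 of 13 leave-outs. Its counts ran from 0 to 851 a library over both regions, with a median of 12. The *Nedd4l* call held in 4 of 13 leave-outs and was lost with upper-quartile scaling (0.0601), no filter (0.0727) and limma-voom (0.0689). The *H6pd* call was also lost by limma-voom (-0.38, adjusted p = 0.0673) and without control mouse 9184, and that of *Thbs1* in 4 further leave-outs (CKD 9176, CKD 9178, control 9180 and control 9184). Of 6 activated fibroblast markers, 3 fell in CKD infarct tissue here, with a summed level of 198 to 2465 CPM in CKD and 1452 to 4801 CPM in control infarct libraries, and their part was not tested. The lowest CKD values, 198 and 586 CPM, were those of mice 9179 and 9172, and the next was 1166 CPM. No gene of the 6 further lists passed in remote tissue by edgeR's test, where 0.0216% of all genes did. The nearest was *Spp1*, encoding osteopontin, at -3.18 ± 0.82 (adjusted p = 0.254), which DESeq2 called (0.0357). It stood at -1.31 without control mouse 9180 (adjusted p = 0.531) and at -1.08 by limma-voom (0.720).

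The genes most like each of the 7 were ranked among 13260 genes by the mean of 2 Pearson correlations of log2 CPM, over the 14 remote and over the 13 infarct libraries. For *Agtr1a* they were *Tmem201*, *Slc25a12* and *Slc25a20*, the last 2 encoding mitochondrial carriers, at 0.94 to 0.97 in remote and 0.96 to 0.98 in infarct libraries. For *Nr3c2* they were *Arhgap20*, *Pcnt* and *4632428C04Rik*, at 0.95 in remote and 0.95 to 0.96 in infarct libraries. *Agt* was most like *Dhodh*, a mitochondrial enzyme gene, at 0.78 and 0.93, *Tmem11* (0.85 and 0.85) and *Psme1* (0.82 and 0.85). *Ace* was most like *Lamc1*, a laminin subunit gene, at 0.95 in remote and 0.87 in infarct libraries, followed by *Pmp22* and *Svep1*. *Edn1* was most like *Tnfrsf22* (0.78 and 0.74), *Ednra* like *Josd1* (0.79 and 0.83) and *Ednrb* like *Il17d* (0.65 and 0.77). These are descriptions over libraries that differ in muscle content and include both diets. Without the 2 libraries farthest from the median, the values with *Agtr1a* were 0.75 for *Tmem201*, 0.83 for *Slc25a12* and 0.66 for *Slc25a20* in remote tissue, and 0.94 to 0.97 in infarct tissue. Those with *Nr3c2* were 0.83 to 0.88 in remote and 0.88 to 0.94 in infarct tissue. *Dhodh* with *Agt* was at 0.57 in remote and 0.88 in infarct tissue, and *Lamc1* with *Ace* at 0.93 and 0.51.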

How the data were processed

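Tissue was snap-frozen and libraries were made with the NEBNext Ultra II RNA kit, per the labels' protocols, which do not say whether strand was kept. The deposited values are raw gene-level counts, a unit read from the numbers themselves. The submitters' processing notes name kallisto 0.48.0 and build GRCm39, while the step from transcript estimates to gene counts is not given in the sources used here. Titles gave the groups, and every library is a separate mouse and region. The 7 genes, the further gene lists and the alternatives were chosen with earlier results of these data known.

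Low genes were removed by filterByExpr and libraries were scaled by TMM. Tests were edgeR's quasi-likelihood F tests (version 4.0.16, R 4.3.3), adjusted after Benjamini-Hochberg over all genes tested, with a threshold of 0.05. Each diet comparison used the libraries of 1 region, whereas contrasts between regions and the interaction shared a joint model of the 4 groups (27 libraries). This model held no term for mouse, so the 2 pieces of a heart counted as independent libraries. The SE is the fold change divided by the square root of F. Log2 CPM used a prior count of 2. Of each further list, up to 4 called genes with the smallest p could be named per comparison, or its 2 genes of lowest p if the list had no call. Not all of these are given in the text, and untested or unexpressed list genes could also be named. *Ccn2* stood in both lists of response genes and was counted in each. Some genes of these lists are not reported here and were left out of the lists' counts. The fits were tested on simulated data. Library totals lay between 14255456 and 42566498 counts.

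Scaling by DESeq2 size factors or by the upper quartile, dropping the filter or requiring a mean of 1 CPM, DESeq2 1.42.0 and weighted limma-voom 3.58.1 were tried instead. Further alternatives counted the remote library of mouse 9179 as control, left out the CKD infarct libraries of mice 9172 and 9179 or each library in turn, fitted both regions jointly, added the cardiomyocyte score as covariate or took mouse as a block. The mouse numbers in the titles pair infarct and remote tissue. With group means removed, same-mouse libraries correlated at -0.10 to 0.40 over 13 pairs (median 0.17), and libraries of different mice at a median of -0.02. The closest of 79 library pairs within groups had a chi-square of 9.52 per degree of freedom, far above sampling noise. In the GENCODE annotation of GRCm38, exons of *Ace*, *Nr3c2*, *Edn1* and *Ednra* overlap an antisense gene, and reads of such a pair cannot be told apart without strand. The partner of *Ace* had at most 3 counts in a library. The other 3 partners had no row in the counts used here, so their reads could not be assessed. Promoter sequences are RefSeq's on GRCm38.p6, a build other than that of the counts.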

Additional observations from a re-analysis of the deposited data

Results flagged for a closer look

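*Ace* stood at 180 CPM in the infarct library of control mouse 9183, far from the other 5 control infarct libraries, the nearest of which had 119 CPM. *Nr3c2* stood at 20.96 CPM in the infarct library of CKD mouse 9179, against 11.0 CPM in the nearest of the other 6 CKD infarct libraries. These were 2 of 28 sets of values, 7 genes in 4 groups, in which a single library lay apart by Dixon's rule, and chance marks about 5% of such sets.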

How the results depend on the processing

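Of 896 values of the 7 genes under alternatives, 817 kept their direction and their side of the threshold, 21 lost a call, 26 gained one and 32 changed sign, none of which had been called in the first place. In infarct tissue the number of the 7 genes called between CKD and control mice was 2, but 0 with the CKD infarct libraries of mice 9172 and 9179 left out, 0 with the cardiomyocyte covariate, and 0 to 3 when single libraries were left out (0 without control 9171, control 9182, control 9183, CKD 9172 or CKD 9177). *Nr3c2* passed there with DESeq2 size factors, the 1 CPM filter, DESeq2 and the joint fit of both regions. In all other comparisons the number called stayed within 1.5 times its value. Over all genes, the infarct count of 2908 was 0 in the same 2 settings, 1926 without a filter, 4557 by DESeq2 and 5067 in the joint fit, and 0 to 4651 when single libraries were left out (4651 without CKD mouse 9175, 1742 without 9176, 1644 without 9179, 1898 without control mouse 9180). The leave-outs with 0 over all genes were the same as those with 0 of the 7. The remote count of 3 was 97 by DESeq2, 5 by limma-voom, 0 with the covariate, 1 without a filter, with mouse 9179 as control or in the joint fit, and 1 to 6 when single libraries were left out.

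With mouse as a replicate block, the interaction called 0 genes in edgeR and 331 in limma-voom, none of them among the 7. Among the genes and comparisons run under the alternatives, the block changed no call other than those given above for *Ednra*, *Ace*, *Nr3c2* and *Ece1*. Under it the *Edn1* interaction turned to 0.020 (edgeR) or 0.054 (limma-voom) and that of *Spp1* to -0.17 (limma-voom).

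The other changes of sign were as follows. Between CKD and control remote tissue, *Agtr1a* was -0.040, *Nr3c2* -0.066 and *Edn1* 0.062 and *Nedd4l* -0.0013 with the covariate, and with mouse 9179 as control *Nr3c2* was -0.0013, *Ece1* 0.0025 and *Nr3c1* -0.025. *Nr3c1* was -0.035 by limma-voom. When single remote libraries were left out, *Edn1* ranged from -0.19 to 0.0049, *Ednra* from -0.17 to 0.028, *Ednrb* from -0.11 to 0.023, *Ece1* from -0.076 to 0.027 and *Nr3c1* from -0.034 to 0.095. In infarct tissue with the covariate, *Ace* was 0.21, *Nr3c2* -0.087, *Edn1* 0.061 and *Edn3* -0.080, and *Ace* was 0.035 by limma-voom. The interaction of *Edn1* was 0.010 without a filter, 0.034 by limma-voom and 0.069 without CKD mice 9172 and 9179, and ranged from -0.10 to 0.090 over single libraries left out. That of *Ednrb* was 0.083 with mouse 9179 as control, that of *Ece2* 0.18 without CKD mice 9172 and 9179, and that of *Spp1* -0.20 by limma-voom. Over single libraries left out they ranged from -0.14 to 0.015 for *Ednrb*, from -0.78 to 0.032 for *Ece2* and from -0.0060 to 0.30 for *Ace*. The causes of these changes were not tested. Depth limits *Ece2* most of the genes named between regions, whose lowest library held 1 count.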
